A study of Mus musculus with 10 samples.

Results

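Stearoyl-CoA desaturases are endoplasmic reticulum enzymes that place a double bond at the ninth carbon of palmitoyl-CoA and stearoyl-CoA, giving palmitoleate and oleate. The mouse carries 4 of them, Scd1, Scd2, Scd3 and Scd4, and their transcripts were followed through the differentiation of MC3T3-E1 cells to osteoblasts. The 4 genes were taken by their Ensembl identifiers, out of 40620 genes in the count table, and all 4 passed the filter on low counts. They were chosen from values measured in these same libraries, so their levels, shares and fold changes are described here without a test.

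In the desaturase reaction, electrons pass from NADH through cytochrome b5 reductase and cytochrome b5 to the enzyme. The substrates come from fatty acid synthase and the elongase Elovl6, and transcription of these genes is driven by the SREBP and LXR factors. The products enter triglycerides, phospholipids and cholesterol esters, and palmitoleate is the acyl chain that Porcn attaches to Wnt proteins, ligands of a pathway that controls osteoblasts. Scd1 is best known from liver and adipose tissue, Scd2 from brain and many other tissues, Scd3 from skin and Scd4 from heart.

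MC3T3-E1 is an osteoblast precursor line from mouse calvaria, and the study used a single subclone, so all libraries stem from 1 clone. Subconfluent cells and confluent cells were in growth medium (αMEM with 10% serum). Cells at 24 h, 14 d and 21 d had been moved at confluence to the same base with 10 mM β-glycerophosphate and ascorbic acid at 50 µg/ml, and no cells were kept in growth medium for those times, so time and medium cannot be told apart. Each of the 5 stages had 2 replicates, A and B, 10 libraries in all. The labels do not say whether replicates came from separate cultures, so p-values measure the spread between these samples, which may be technical.

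Reads counted on genes ranged from 44736156 to 162939333 per library. The 6 libraries from subconfluent to 24 h carried a different pair of index sequences from those of 14 d and 21 d, so a difference between these sets and a difference between stages cannot be told apart. The replicates at 24 h were the furthest apart, with an SD of the log2 ratio of A to B of 0.727 over 11993 genes against 0.528 to 0.648 at the other stages. Of 8 osteoblast markers, 7 or 8 were above 1 RPKM in both replicates of every stage. Ibsp was at 11.8 and 20.0 RPKM in subconfluent cells and at 2510 and 2570 RPKM at 21 d. Col1a1 and Col1a2 did not rise in that comparison (log2 fold changes -0.01 and -0.10). At 21 d against 14 d the median log2 fold change of the 8 was -0.82. Alpl was at -1.47 and Ibsp at -0.81 there, while Spp1 (2.05) and Dmp1 (1.88) rose. Of 10 adipocyte markers none exceeded 1 RPKM in both replicates except Lipe at 24 h, and their summed level lay between 0.75 and 2.26 RPKM, with Adipoq at most 0.0342 and Plin1 at most 0.0159 RPKM. Of that list Fabp4, a fatty acid binding protein, was higher by edgeR at 24 h than in confluent cells (log2 fold change 3.63, adjusted p = 0.035), at 0.929 and 1.06 RPKM, lower at 14 d than at 24 h (-2.63), and higher at 21 d than in subconfluent cells (3.48, adjusted p = 0.014). The part of such cells in the Scd values was not tested. Of 8 blood cell markers 3 were above 1 RPKM in every library (summed over the 8, 10.3 to 16.3 RPKM). They were Itgam at 5.0 to 9.86, Csf1r at 1.83 to 3.19 and Cd14 at 1.98 to 2.51 RPKM. Ptprc was at 0 in every library.

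The 4 genes lie side by side on chromosome 19 of GRCm38, in the order Scd3 (chr19:44203269-44244016, plus strand), Scd2 (chr19:44293674-44306864, plus strand), Scd4 (chr19:44333092-44346743, plus strand) and Scd1 (chr19:44394455-44407879, minus strand). Each has 6 exons in its longest coding transcript and between 1059 and 1077 coding bases. Over the aligned coding bases Scd1 and Scd3 were 91.46% identical, Scd1 and Scd2 90.33%, and Scd4 between 83.95% and 85.15% identical to the others. Their exons 4, which are coding throughout, are shown because these 206 bases are the stretch where a read is hardest to assign. The sequences are from GENCODE vM21 transcripts on GRCm38, 5′ to 3′ on the strand of the gene, and capitals mark bases that differ from Scd1.
Scd1: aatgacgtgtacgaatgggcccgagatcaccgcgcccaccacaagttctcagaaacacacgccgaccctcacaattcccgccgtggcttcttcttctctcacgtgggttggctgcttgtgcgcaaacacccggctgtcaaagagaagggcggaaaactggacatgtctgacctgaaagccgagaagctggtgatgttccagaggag
Scd2: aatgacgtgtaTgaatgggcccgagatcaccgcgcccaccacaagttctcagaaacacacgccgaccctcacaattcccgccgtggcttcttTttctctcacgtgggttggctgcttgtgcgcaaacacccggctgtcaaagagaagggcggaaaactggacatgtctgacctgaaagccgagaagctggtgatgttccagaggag
Scd3: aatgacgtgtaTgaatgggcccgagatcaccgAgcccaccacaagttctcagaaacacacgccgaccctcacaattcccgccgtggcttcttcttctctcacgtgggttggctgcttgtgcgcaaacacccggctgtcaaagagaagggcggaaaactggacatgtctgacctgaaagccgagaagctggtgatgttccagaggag
Scd4: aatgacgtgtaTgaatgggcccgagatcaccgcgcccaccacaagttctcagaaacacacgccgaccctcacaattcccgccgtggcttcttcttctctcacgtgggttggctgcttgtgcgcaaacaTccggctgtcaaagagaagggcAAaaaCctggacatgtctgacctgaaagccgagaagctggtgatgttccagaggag
The exons are at chr19:44401693-44401898 (Scd1, minus strand), chr19:44299609-44299814 (Scd2, plus strand), chr19:44235771-44235976 (Scd3, plus strand) and chr19:44338910-44339115 (Scd4, plus strand). Scd2 and Scd3 each differ from Scd1 at 2 of the 206 bases and Scd4 at 5, and the longest run shared with Scd1 is 113 bases in Scd2, 173 in Scd3 and 116 in Scd4.

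The reads were 51 bases long at each end of a fragment. Of the 51-base windows in each longest coding transcript, 4.54% of those of Scd1, 3.68% of Scd2, 6.19% of Scd3 and 3.29% of Scd4 occurred unchanged in another of the 4. All of them lay in the coding sequence, where the shares were 21.38% for Scd1, 19.43% for Scd2, 20.74% for Scd3 and 10.6% for Scd4. With up to 2 mismatches allowed, 55.27% of the coding windows of Scd1, 47.95% of Scd2, 52.48% of Scd3 and 28.84% of Scd4 had a match in another member. The last exon, which holds most of each transcript, held few such windows, with 19 identical ones in Scd1, 18 in Scd2, 30 in Scd3 and 0 in Scd4. The deposited length of Scd2, 1814 bases, was far below the 5455 of this transcript. Over the bases that were counted, its share of such windows may therefore be higher. How reads that fit several genes were counted is not given in the sources used here. The part of shared reads in the values below was not tested.

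**Figure D1:**
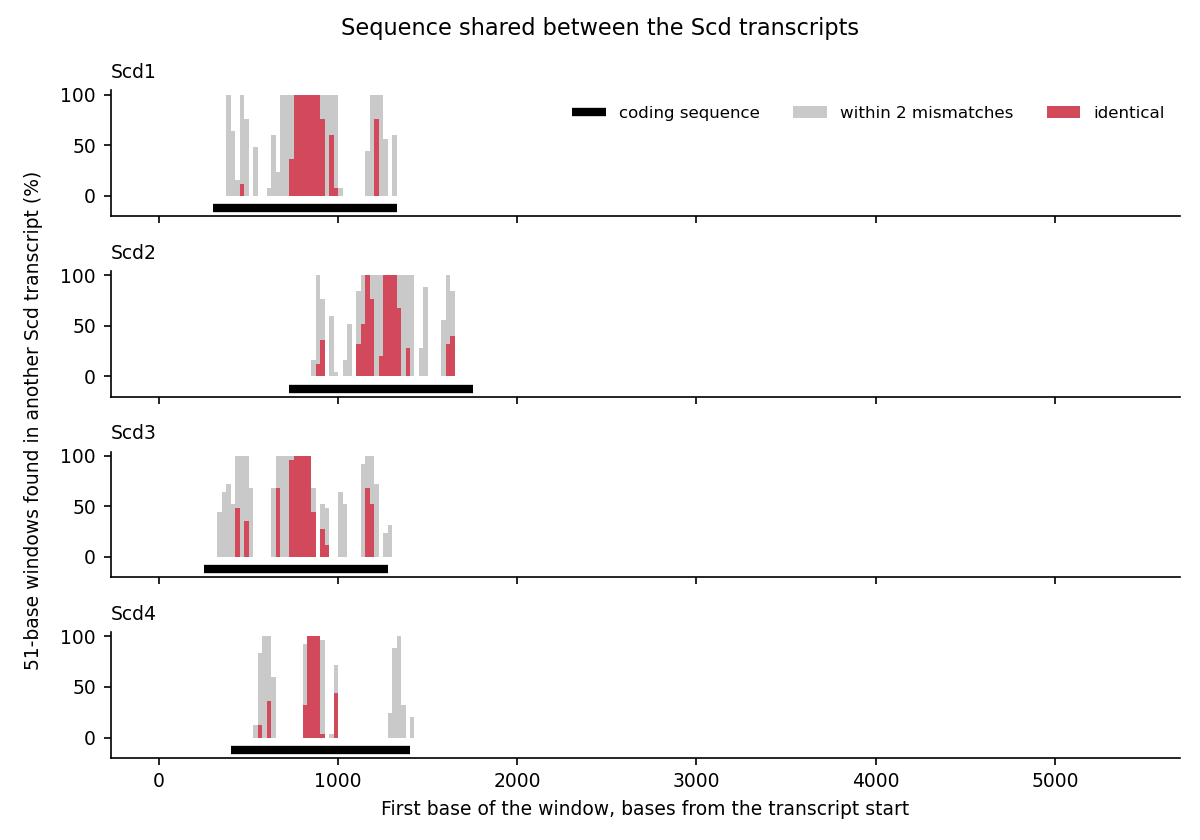
Percentage of 51-base windows found in another Scd transcript (vertical axis, %) against the position of the window's first base (horizontal axis, bases from the transcript start), in bins of 25 bases, for the longest coding transcript of each gene. Red marks identical windows, grey windows within 2 mismatches, and the black line the coding sequence. Shared windows sit in the coding sequence and the long last exons are almost free of them.

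Scd2 had the highest level of the 4 genes in every library when scaled by the deposited gene lengths. Its RPKM (reads per gene length and sequencing depth, as deposited) was 460.5 and 484.9 in subconfluent cells (replicates A and B), 576.5 and 450.4 in confluent cells, 48.23 and 331.1 at 24 h, 302.3 and 305.0 at 14 d, and 187.5 and 172.7 at 21 d. The libraries of 14 d and 21 d lay below every subconfluent and confluent library, and 21 d lay below 14 d. The share of all genes that separate in this way was not counted, here or for the other members and their sum below. The replicates at 24 h were 6.87-fold apart, with replicate A lower than any other library. On the log2 ratio of A to B, only 0.65% of 11993 genes were as far apart at that stage.

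Scd1 came next in most libraries, at a far lower level. It was at 76.96 and 77.34 RPKM in subconfluent cells, 78.21 and 64.42 in confluent cells, 25.25 and 39.03 at 24 h, 37.94 and 39.66 at 14 d, and 19.43 and 19.02 at 21 d. All 6 libraries from cells in osteogenic medium were below all 4 from cells in growth medium, and the 21 d libraries were the lowest. How many of all genes separate like this was not counted. The 24 h and 14 d libraries overlapped. At 24 h the replicates of Scd1 were 1.55-fold apart, a distance reached by 32.1% of genes.

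Scd3 was at 51.59 and 56.71 RPKM in subconfluent cells, 58.11 and 46.59 in confluent cells, 7.75 and 35.86 at 24 h, 31.12 and 30.06 at 14 d, and 19.86 and 20.5 at 21 d. It repeated the low value of Scd2 in replicate A at 24 h, there 4.63-fold below replicate B. Like Scd1 and Scd2 it was lower at 21 d than at 14 d in both replicates.

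Scd4 had the largest contrast between stages. It was at 48.12 and 64.62 RPKM in subconfluent cells and at 74.01 and 60.31 in confluent cells, close to Scd1 and Scd3. At 24 h it was at 1.288 and 3.742 RPKM, and at 14 d at 4.359 and 4.382. At 21 d the replicates disagreed, with 17.0 RPKM in A and 2.781 in B, 6.11-fold apart, a distance reached by 0.667% of genes at that stage. Every library from cells in osteogenic medium was below every library from cells in growth medium, and without replicate A of 21 d the later libraries all lay at or below 4.382 RPKM. In replicate A of 21 d the other 3 members were within 1.09-fold of replicate B.

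**Figure D2:**
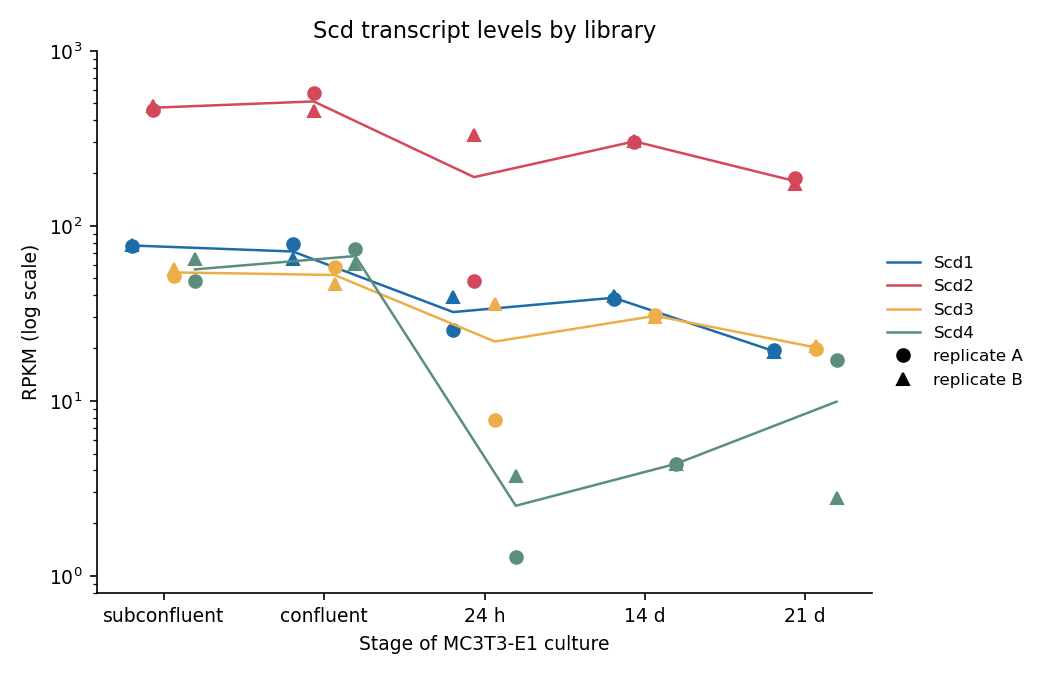
RPKM of the 4 Scd genes (vertical axis, log scale) at the 5 stages (horizontal axis). Circles are replicate A, triangles replicate B and lines join the means of the 2 replicates. On the deposited lengths Scd2 is highest in every library, Scd4 is at 48.12 to 74.01 RPKM in growth medium and at most 17.0 RPKM afterwards, and replicate A at 24 h lies apart for Scd2 and Scd3.

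The smallest count of a member was 412 reads, for Scd4 in replicate A at 24 h, with an exact 95% Poisson interval of 373 to 454, and the largest was 88245, for Scd2 in confluent replicate B. Such intervals cover counting error only, and at 14 d, where the replicates of Scd4 had 1476 and 544 counts and 4.359 and 4.382 RPKM, the replicates were closer than counting error. In bulk RNA, fewer cells expressing a gene and less transcript per cell cannot be told apart.

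The order of the levels was Scd2, Scd1, Scd3 and Scd4 at 24 h and 14 d. In confluent cells the mean of Scd1 was 71.31 ± 9.746 RPKM (SD, n = 2) and that of Scd4 67.16 ± 9.686, so these neighbours did not differ beyond their spread. In subconfluent cells Scd4 (56.37 ± 11.67 RPKM, SD, n = 2) and Scd3 (54.15 ± 3.622) did not either. At 21 d Scd3 (20.18 ± 0.4491 RPKM, SD, n = 2) and Scd1 (19.22 ± 0.2938) were close, and the wide spread of Scd4 (9.889 ± 10.05) reached towards both.

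Summed over the 4 genes, the level was 637.2 and 683.6 RPKM in subconfluent cells, 786.9 and 621.8 in confluent cells, 82.53 and 409.8 at 24 h, 375.7 and 379.1 at 14 d, and 243.8 and 215.0 at 21 d. The sum was thus lower in every library of the osteogenic stages than in any from growth medium. Scd2 made up 71.61 ± 0.9456% of it before confluence (SD, n = 2), 72.86 ± 0.5836% at confluence, 80.46 ± 0.004589% at 14 d and 78.62 ± 2.412% at 21 d. At 24 h its share was 58.45% in replicate A and 80.81% in replicate B, where that of Scd1 was 30.6% and 9.525%. Scd1 otherwise held 7.969% to 12.08% and Scd3 held 7.385% to 9.535% in all 10 libraries. The share of Scd4 was 7.552% to 9.7% in growth medium and 0.9131% to 1.561% afterwards, except for 6.971% in replicate A of 21 d. The small SD of the Scd2 share at 14 d leaves out the difference between sequencing lanes. Taken singly, the lanes of replicate A at 14 d gave Scd2 shares of 76.59% and 83.34%.

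These shares depend on the gene length used for the RPKM. The deposited length of Scd2 was 1814 bases, while its exons in GENCODE vM21 cover 5464, a ratio of 0.332. For Scd1, Scd3 and Scd4 the deposited lengths of 4830, 3464 and 3762 bases were 0.987, 0.975 and 0.998 times the vM21 length. Of 20541 genes tested and present in vM21, 60.51% had a deposited length within 10% of the vM21 one, and 4.09% had a ratio as low as that of Scd2. With the vM21 lengths the share of Scd2 was 45.9% in subconfluent cells, 47.43% in confluent cells, 45.45% at 24 h, 58.16% at 14 d and 55.42% at 21 d. The ratio of Scd2 to Scd1 per length, 5.984 to 9.651 outside replicate A of 24 h, was then 2.012 to 3.245, and in that library it changed from 1.91 to 0.6422. Scd2 therefore stayed the highest member in 9 of 10 libraries. The counts were deposited with the length of 1814 bases, and whether reads on the other vM21 bases of Scd2 were counted is not known. If they were not, dividing by 5464 bases gives too low a level for Scd2. Which length fits the counted reads was not tested.

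**Figure D3:**
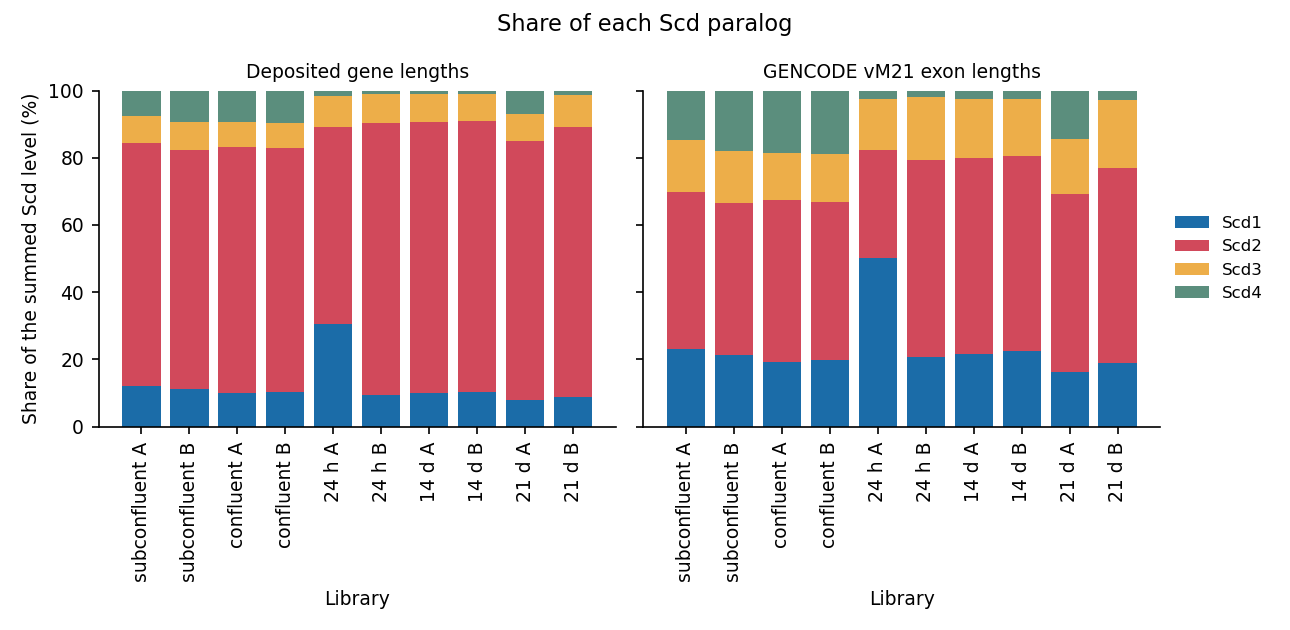
Share of each Scd gene in the summed level (vertical axis, %) in each of the 10 libraries (horizontal axis), from deposited RPKM on the left and from counts divided by GENCODE vM21 exon lengths on the right. Scd2 is the largest part in every bar on the left, and on the right in every bar but replicate A of 24 h.

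Counts of Scd3 kept a narrow ratio to those of Scd1 and Scd2. Scd3 divided by the sum of Scd1 and Scd2 was 0.1282 to 0.1753 in all 10 libraries, while Scd3 itself ran from 7.75 to 58.11 RPKM. The same ratio for Scd4 was 0.15 to 0.2011 in growth medium and 0.01784 to 0.02583 later, except for 0.1473 in replicate A of 21 d. That value for Scd4 was close to the 0.15 of subconfluent replicate A.

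Replicate A of 14 d and replicate B of 21 d were sequenced in 2 lanes each, so the same library was counted more than once. At 14 d the lanes gave 240.6 and 299.1 RPKM for Scd2 and 30.96 and 18.11 for Scd3, while Scd1 had 38.07 and 37.67. The ratio of Scd3 to Scd1 and Scd2 was 0.1729 in the first lane and 0.08657 in the second, a wider gap than between any of the 10 libraries. After centring, the lane ratio of Scd3 was as far from that of other genes as that of 1.07% of 10798 genes with at least 1000 counts, that of Scd2 as far as 1.92%, and that of Scd1 as far as 97.1%. The merged column did not equal the sum of the lanes for these genes either. Scd2 had 49351 merged counts against a sum of 42362 (1.165 times) and Scd3 9701 against 8361 (1.16 times), while Scd1 had 16493 against 16495 and Scd4 1476 against 1470. In replicate B of 21 d the merged counts of Scd1, Scd2 and Scd3 were 1.0 to 1.002 times the sum, and the Scd3 ratio was 0.1741 and 0.1861 in its lanes. The counts of Scd2 and Scd3 relative to Scd1 thus differed between lanes of 1 library, and the part of this in the differences between libraries was not tested.

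**Figure D4:**
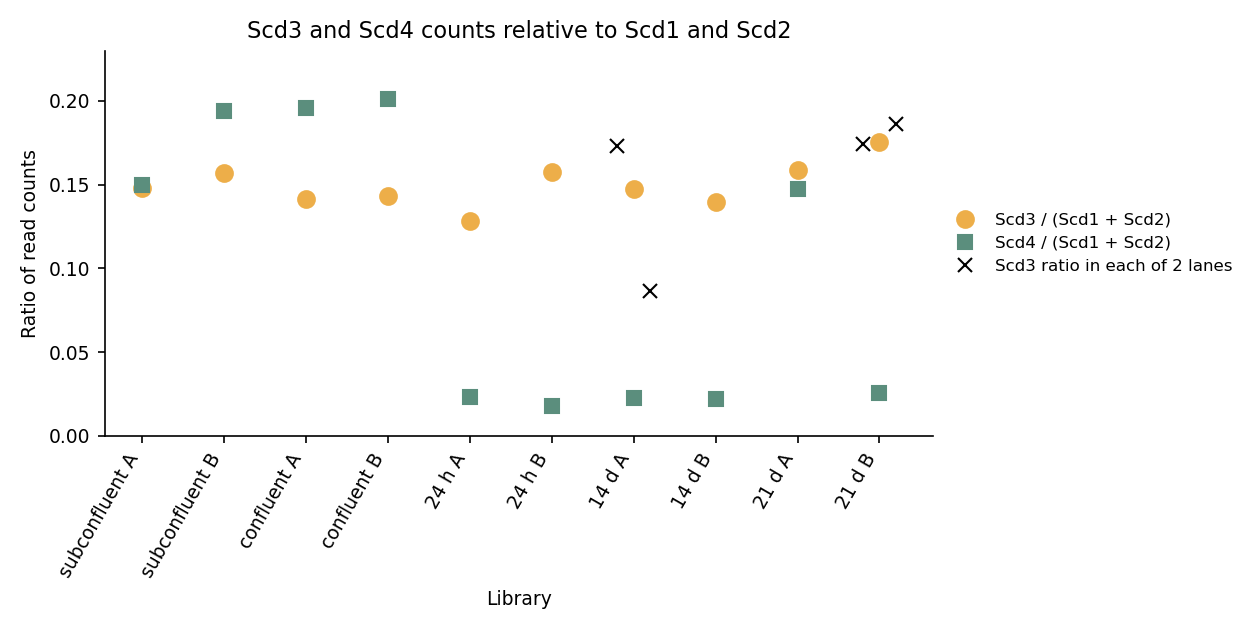
Read counts of Scd3 (circles) and Scd4 (squares) divided by those of Scd1 and Scd2 together (vertical axis, no unit) in each library (horizontal axis). Crosses give the Scd3 ratio in each of the 2 lanes of replicate A at 14 d and replicate B at 21 d. The Scd3 ratio stays between 0.1282 and 0.1753 in the libraries, the lanes at 14 d give 0.1729 and 0.08657, and the Scd4 ratio is at most 0.02583 from 24 h on except in replicate A of 21 d.

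Fold changes are given from a fit of all genes with edgeR, with their standard errors and no p for the members. Between confluent and subconfluent cells, both in growth medium, the log2 fold change was -0.14 (SE 0.17) for Scd1, 0.09 (SE 0.67) for Scd2, -0.08 (SE 0.54) for Scd3 and 0.23 (SE 0.75) for Scd4, and the libraries overlapped for each gene. The sign changed for Scd2 without confluent replicate A (-0.09) and for Scd3 without confluent replicate B (0.07).

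From confluent cells to 24 h in osteogenic medium, the log2 fold change was -1.07 (SE 0.17) for Scd1, -1.38 (SE 0.68) for Scd2, -1.21 (SE 0.55) for Scd3 and -4.67 (SE 0.87) for Scd4. For none of the 4 did the libraries of these stages overlap, but the share of all genes without overlap was not counted. Replicate A of 24 h set the size for Scd2, which was -0.59 without it and -3.25 without replicate B. For Scd3 these values were -0.51 and -2.59, for Scd1 -0.83 and -1.34, and for Scd4 -4.13 and -5.54. The size for Scd2 and Scd3 thus rested on 1 library.

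From 24 h to 14 d, across the sets of libraries, the log2 fold changes were 0.41 for Scd1, 0.84 for Scd2, 0.65 for Scd3 and 0.95 for Scd4. Without replicate A of 24 h they were 0.17 for Scd1, 0.05 for Scd2, -0.06 for Scd3 and 0.40 for Scd4.

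From 14 d to 21 d, within a set of libraries, the log2 fold change was -1.09 (SE 0.18) for Scd1. It was -0.83 (SE 0.67) for Scd2 and -0.67 (SE 0.54) for Scd3. These genes had no overlap between the stages, and here too the share of all genes without overlap was not counted. Scd4 had 1.10 (SE 0.77) with overlap, and -0.72 without replicate A of 21 d, so its direction rested on that library. When lane counts were added up instead, the values were -0.73 for Scd2 and -0.57 for Scd3.

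Over the whole course, 21 d against subconfluent cells, the log2 fold change was -1.89 (SE 0.18) for Scd1, -1.28 (SE 0.68) for Scd2, -1.31 (SE 0.55) for Scd3 and -2.40 (SE 0.79) for Scd4. As folds, the levels at 21 d were lower by 3.702-fold for Scd1, 2.421-fold for Scd2, 2.475-fold for Scd3 and 5.289-fold for Scd4. The value for Scd4 was -4.22 without replicate A of 21 d and -1.62 without replicate B. For 14 d against confluent cells it was -0.66 (SE 0.17) for Scd1, -0.54 (SE 0.67) for Scd2, -0.56 (SE 0.54) for Scd3 and -3.72 (SE 0.84) for Scd4. With the 4 genes counted as a single feature, the log2 fold change was -1.51 (SE 0.50) for 21 d against subconfluent cells. It was -0.77 (SE 0.49) for 14 d against confluent cells and -0.78 (SE 0.49) for 21 d against 14 d. Reads moving between paralogs do not change this sum, but it still depends on how reads were counted. In replicate A of 14 d the merged counts of both Scd2 and Scd3 exceeded their lane sums, as given above.

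The larger standard errors of Scd2, Scd3 and Scd4 came with the replicate distances at 24 h and 21 d given above. Over 12081 genes that averaged 5 CPM (counts scaled to library size) or more, the genes whose log2 level was most like that of Scd1 in the 10 libraries were Mybbp1a (Pearson r = 0.991), Sf3a1 (0.989), the fatty acid synthase Fasn (0.986), the phosphodiesterase Pde4d (0.986) and Srebf2 (0.985). Without replicate A of 24 h they had ranks 5, 8, 16, 25 and 6. Like Scd2 were Gprc5b (0.992), Lrch4 (0.987), Zfp687 (0.985) and Mtdh (0.981) among the nearest. These 4 were lowest in replicate A of 24 h, where Mtdh had 8.66 RPKM against 11.9 to 16.6 in the other libraries, and without that library they had ranks 17, 369, 514 and 956. Scd1 and Scd2 had an r of 0.752 with all libraries and 0.986 without it. The points are 10 libraries in 5 stages that share a replicate spread and 2 library sets, so these values are a description.

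The other genes of the pathway were counted from 8 lists with 79 genes, of which 68 were tested. These lists were chosen with earlier results of these data known. Their counts and p-values, here and below, are therefore not independent support. They were called at an adjusted p under 0.05 by edgeR's quasi-likelihood test, with more than a 2-fold change for comparisons of stages. Any difference among the 5 stages was found for 49 of the 68, beside 48.9% of all 20808 genes tested. These were 8 of 9 genes of fatty acid synthesis, 10 of 11 of chain elongation, 5 of 6 other desaturases, 3 of 5 of electron supply, 4 of 5 acyl-CoA synthetases, 8 of 15 regulators, 8 of 13 users of monounsaturated chains and 3 of 4 lipid droplet coats.

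At 21 d against subconfluent cells 26 of the 68 genes fell and 11 rose, beside 11.3% of all genes tested that fell and 16.3% that rose. The median log2 fold change was -1.14 over fatty acid synthesis, -1.04 over chain elongation and -1.45 over the acyl-CoA synthetases, against 0.04 over all genes. It was -0.68 over the other desaturases, -0.20 over electron supply, 0.01 over the regulators, 0.22 over the users of monounsaturated chains, 0.87 over the lipid droplet coats and -0.31 over all lists. In fatty acid synthesis 6 of 9 fell, among them Fasn (log2 fold change -1.67, SE 0.18, adjusted p = 0.00026), Acly, which makes cytosolic acetyl-CoA (-1.62, adjusted p = 0.00037), and the low Acacb (-2.34, adjusted p = 0.0017). Acaca, the main acetyl-CoA carboxylase, was at -0.44 (adjusted p = 0.017 by edgeR), lower but under the fold limit. Of chain elongation 7 of 11 fell. The 3 with the largest changes were Elovl6, which elongates palmitate (-3.40, SE 0.14, adjusted p = 4.9e-06), Elovl7 (-2.72) and Elovl5 (-2.12).

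The other desaturases moved with the Scd genes in part. Fads2, the delta-6 desaturase, was at 168.9 ± 4.539 RPKM in subconfluent cells and 7.441 ± 0.8803 at 21 d (SD, n = 2), and fell by 4.39 on the log2 scale (SE 0.22, adjusted p = 9.9e-06). Fads1, the delta-5 desaturase, fell by 2.11 (adjusted p = 1.2e-05), the low Fads6 rose by 2.33 (adjusted p = 0.00045), and the remaining 3 tested were not called. Without the fold limit, 4 of the 6 were lower and 1 was higher at an adjusted p under 0.05 by edgeR. The share of all genes at that limit was not counted, so these counts have nothing to stand beside. The fall of Fads2 was larger than the log2 difference of -1.89 for Scd1, although the difference between the genes was not tested. Of electron supply, the cytochrome b5 Cyb5b (-1.15) and the reductase Cyb5r3 (-1.17) fell and the reductase Cyb5r1 rose (1.88), from 21.64 ± 0.4235 to 73.45 ± 4.027 RPKM (SD, n = 2). Of the acyl-CoA synthetases 4 of 5 fell, with Acsl4 at -1.997, Acsl3 at -1.60, Acsl1 at -1.45 and Acsl5 at -1.20, and Acsl6, at most 0.0656 RPKM, rose.

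Of 15 regulators tested at 21 d against subconfluent cells, 2 rose and 3 fell, where 16.3% of all genes rose and 11.3% fell, so the count that rose was near the share of all genes. Srebf2, the SREBP gene best known for cholesterol synthesis, fell from 83.33 ± 2.762 to 20.27 ± 0.515 RPKM (SD, n = 2; log2 fold change -1.92, SE 0.17, adjusted p = 8.4e-05). Insig1, an SREBP target whose product retains the SREBPs in the endoplasmic reticulum, fell by 2.99 (adjusted p = 2.5e-06). Srebf1, the SREBP gene known for fatty acid synthesis, was at -0.33 (adjusted p = 0.037 by edgeR), lower but under the fold limit. Nr1h3, which encodes the LXR alpha receptor, rose by 3.80 (adjusted p = 1.6e-05) to 2.68 and 2.73 RPKM. Cebpa rose by 1.27 (adjusted p = 0.00017) and Pparg, like Cebpa a regulator of fat cells, fell by 1.67 (adjusted p = 0.035) from levels of at most 0.196 RPKM.

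Of 13 users of monounsaturated acyl chains, 4 rose and 2 fell in that comparison, beside the same 16.3% and 11.3% of all genes, and the count that fell was near that share. Porcn, the enzyme that acylates Wnt proteins, rose from 3.865 ± 0.7602 to 16.93 ± 0.4153 RPKM (SD, n = 2; log2 fold change 2.24, SE 0.14, adjusted p = 2.2e-05). Notum, which removes the acyl group from Wnt proteins, rose by 1.14 (adjusted p = 0.005), and the phosphatidate phosphatases Lpin3 by 1.41 (adjusted p = 0.00014) and Lpin1 by 1.47. Those that fell were Lpin2 by 1.03 and the acyltransferase Mboat1 by 1.32. Of the lipid droplet coats 2 of 4 tested rose, Plin3 by 1.01 (adjusted p = 0.00011) and Plin4 by 6.91 (adjusted p = 0.00018) to 2.3 and 2.32 RPKM, while the adipocyte coat Plin1 stayed at or near 0.

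Within the later set of libraries, 21 d against 14 d, 7 of the 68 genes fell and 2 rose, beside 2.45% and 1.52% of all genes. Those that fell were Fasn (-1.09, adjusted p = 0.01), Elovl6 (-1.51, adjusted p = 0.00085), Fads1 (-1.25), Fads2 (-2.69), Srebf2 (-1.17, adjusted p = 0.005), Insig1 (-1.74) and Notum (-1.62), and Cyb5r1 (2.09) and Plin4 (3.14) rose. Scd1, at -1.09, had the same size of difference as Fasn. The count of calls was 6 without either replicate of 21 d.

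**Figure D5:**
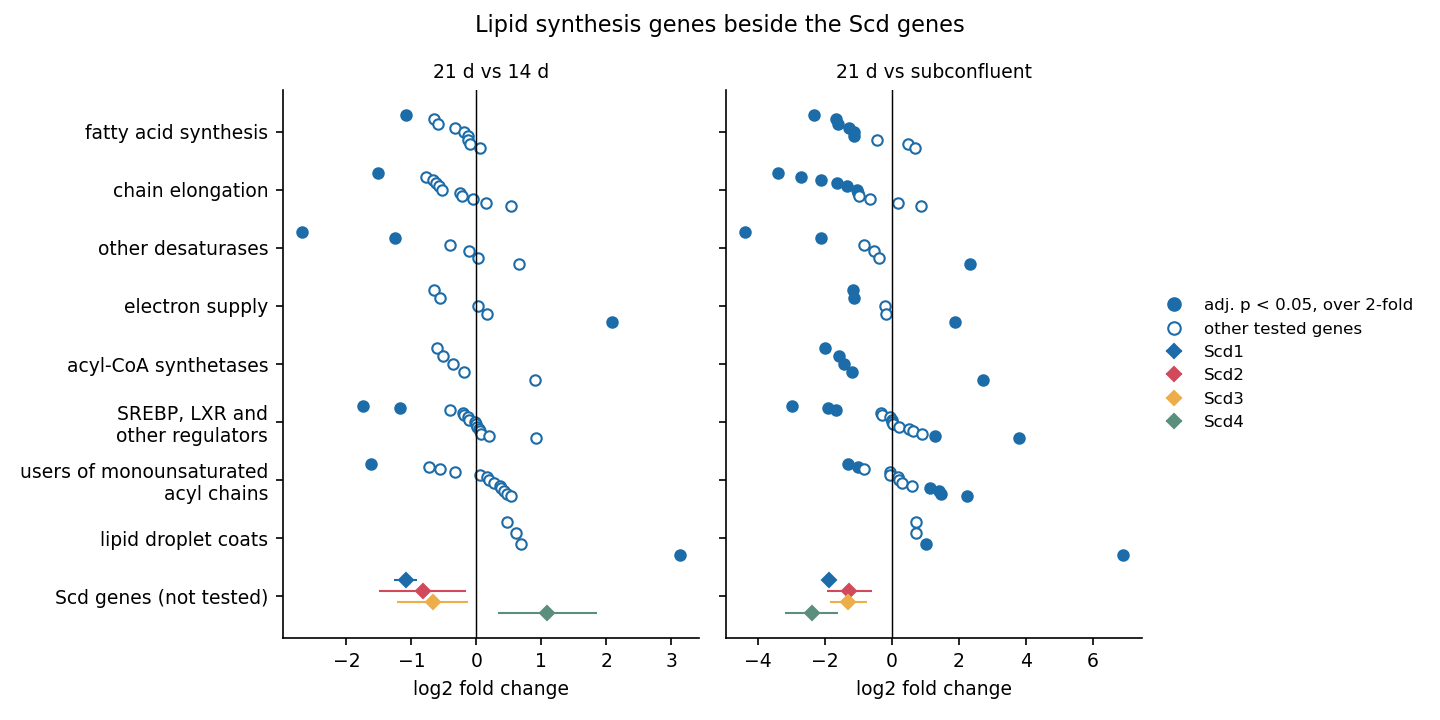
Log2 fold change (horizontal axis) of the tested genes of the 8 lists (rows) at 21 d against 14 d and against subconfluent cells. Filled circles have an adjusted p under 0.05 and more than a 2-fold change, open circles are the other tested genes, and diamonds with standard errors are the 4 Scd genes, which were not tested. At 21 d against subconfluent cells 26 list genes are filled on the left of 0 and 11 on the right, and all 4 Scd genes lie on the left.

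Within the earlier set, no gene of the lists was called between confluent and subconfluent cells in either direction, beside 1.0% of all genes that rose and 0.423% that fell. At an adjusted p under 0.05 without the fold limit, edgeR gave 2 that were higher, Cebpa (0.77) and Porcn (0.78), and 0 that were lower. At an unadjusted p under 0.05 there were 22 of 68 by edgeR, and DESeq2 called 0 with 21 of 78 at that limit. The shares of all genes at an unadjusted p, or without the fold limit, were not counted, here or below. At 24 h against confluent cells Elovl6 (-1.13, adjusted p = 0.0053) and Fads2 (-1.15, adjusted p = 0.02) fell and Nr1h3 (1.10) and Notum (1.71) rose, beside 0.365% and 1.76% of all genes. With library size as the only scaling 1 rose and 3 fell. The number called was 1 without replicate A of 24 h, 9 without replicate B, 1 without either confluent replicate, 2 without either 14 d replicate, and 0 when only these stages were fitted, with 22 at an unadjusted p under 0.05. The fit of these stages alone tested 66 list genes. Scd4, which was not tested, was at -4.67 (SE 0.87) in this comparison.

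Across the sets of libraries, 14 d against confluent cells had 8 list genes that rose and 6 that fell, beside 9.15% and 3.85% of all genes, and with library size alone 5 rose and 12 fell. Elovl5 (-1.32), Elovl6 (-1.73), Elovl7 (-2.39), Fads2 (-1.43), Acacb (-1.72) and Acsl4 (-1.09) were the 6 that fell, while Porcn (1.07), Notum (2.55), Lpin3 (1.53), Nr1h3 (2.51), Fads6 (1.55) and Plin4 (4.40) were among those that rose. At 14 d against 24 h, Nr1h3 (1.41), Lpin1 (1.36) and Plin4 (3.87) rose and Elovl7 (-1.65) and Hacd1 (-1.16) fell, 3 and 2 genes beside 4.47% and 1.51%. Those counts were 5 and 3 without replicate B of 24 h, 2 and 1 without replicate A of 14 d, and 0 and 0 when only these stages were fitted, with 14 at an unadjusted p under 0.05. The fit of these stages alone tested 67 list genes. Acsl1, Acsl5, Cebpa, Hacd1, Lpin1, Lpin2 and Mboat1 are named here after their values were seen, to complete counts of 5 or fewer.

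The nearest 3 protein-coding genes on each side of the cluster were read beside it. Cwf19l1, the third before Scd3, was at 7.92 and 8.02 RPKM in subconfluent cells and 6.52 and 6.08 at 21 d, and was not called in any comparison. Bloc1s2 fell at 14 d against 24 h by 1.11 and against confluent cells by 1.34 (adjusted p = 0.0044), and was at -0.93 at 21 d against subconfluent cells, under the fold limit. Sec31b, the second after Scd1, which overlaps Gm20538, rose by 2.54 at 21 d against subconfluent cells (adjusted p = 0.0006), where all 4 Scd genes were lower. Pkd2l1 and Wnt8b, which stand next to Scd3 and Scd1, were at most 0.0178 and at 0 RPKM and were not tested. A sixth neighbour, Gm20538, and 5 annotated genes inside the cluster, among them an antisense gene of Scd3 and a pseudogene that shares windows with all 4 members, had no row in the count table.

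RefSeq promoter windows of GRCm38.p6, from 250 bases before to 50 after the start, were at hand for Scd3 and Scd4, and Scd1 and Scd2 were not in that table. Of 5 motifs searched on both strands, 0 were found in either window. The letters CCAAT, read by NF-Y, occur in 37.41% of 32851 promoter windows. The sterol response element TCACCCCAC occurs in 0.55%, and the E-box CACGTG in 7.15%. The GC box GGGCGG occurs in 35.66%, and the nuclear receptor half-site AGGTCA in 16.26%. Their absence says only that these letters are not in these bases.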

How the data were processed

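Total RNA of 10 MC3T3-E1 libraries was sequenced on an Illumina instrument as paired-end reads of 51 bases. Submitters' processing notes name FastQC, TopHat2 2.0.9, R 3.0.1 and mm10. The counting tool, its use of strand and its treatment of reads that fit several genes are not given in the sources used here. The authors deposited raw counts per gene for 40620 genes and RPKM values for 40603. The RPKM values were made from those counts, a gene length and a number of reads that the counts exceed 1.44 to 1.60 times. The 1.60 belongs to replicate A of 24 h, and the other libraries were at 1.44 to 1.52. Libraries were grouped by stage from the sample titles. For libraries sequenced in 2 lanes the merged column was used.

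The 4 Scd genes, the comparison genes and the lists were chosen with earlier results of these data known. Counts were filtered with filterByExpr (20808 genes kept), normalized by TMM and fitted in edgeR 4.0.16 under R 4.3.3 with a quasi-likelihood model of 5 stages. The 6 comparisons and an F test over stages were adjusted by the Benjamini-Hochberg method over all tested genes. The SE of a log2 fold change was its size over the square root of the F statistic. The steps were tested on simulated counts. Shares were computed from RPKM, ratios of Scd3 and Scd4 to the other members from counts, and the likeness of genes from log2 CPM with a prior count of 2. Genes were named by rule: the members, 10 set lipid genes, up to 3 called genes of largest change per list in 14 d against confluent or 21 d against subconfluent cells, the 5 genes most like Scd1 and Scd2, and 3 neighbours on each side. Of the genes this names, 1 is not reported here. Symbols, coordinates and transcripts were from GENCODE vM21 (GRCm38), with 39547 symbols matched. Marker levels were read from RPKM and their fold changes from the edgeR fit.

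Alternatives were other scalings (DESeq2 1.42.0 size factors, library size), DESeq2, no filter, the 2 groups alone, no 24 h samples, a replicate block, limma-trend (limma 3.58.1) on log2(RPKM + 1) and log2(RPKM + 0.1), each replicate left out, lane sums, single lanes and unscaled counts. The vM21 lengths, the summed family and the likeness without replicate A of 24 h were added after seeing the data.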

Additional observations from a re-analysis of the deposited data

How the results depend on the processing

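List counts and Scd2 shares were recomputed, and log2 fold changes of Scd1 and Scd2 for 14 d against confluent and 21 d against subconfluent. Of these values 202 were about as before and 35 moved, and of the other Scd values 412 and 52. Shares and fold changes counted as before when they moved by no more than the SD of the replicates. Leaving out 1 replicate cannot move a share further than that, so those values had to count as before. List calls between confluent and subconfluent cells were 0 throughout and also counted as before. The tally is therefore not a measure of stability. The list calls at 24 h against confluent cells were 0 with only these groups fitted and ranged from 1 to 9 when 1 replicate was left out. Those at 14 d against 24 h were 0 with only these groups (14 at an unadjusted p under 0.05), 2 by limma-trend on log2(RPKM + 1), and 3 to 8 with 1 replicate left out, and those at 14 d against confluent cells were 8 by that limma-trend, 1 higher and 7 lower, where edgeR had 8 higher and 6 lower, and 4 higher and 10 lower with a pseudocount of 0.1. For 14 d against confluent cells Scd1 was at -0.89 with library size alone and -0.87 by limma-trend on log2(RPKM + 0.1). For 21 d against subconfluent cells Scd1 was at -1.91 with DESeq2 size factors, -2.05 with library size alone, -1.92 by DESeq2, -1.95 and -1.999 by limma-trend (pseudocounts 1 and 0.1), and -1.93 to -1.88 with 1 replicate left out, and Scd2 was at -1.43 with library size alone and -1.39 by limma-trend with either pseudocount. Library size alone shifted the median of all genes at 14 d against confluent cells from 0.03 to -0.20, and lowered the share of calls that rose from 70.4% to 49.8%. For 24 h against confluent cells that share went from 82.8% to 71.7%, and for 21 d against subconfluent cells from 59.1% to 48.9%.

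The share of Scd2 from counts alone was 52.6% in subconfluent cells, 54.4% in confluent cells, 50.5% at 24 h, 64.0% at 14 d and 62.2% at 21 d. With vM21 lengths it was 45.9%, 47.4%, 45.4%, 58.2% and 55.4%. With replicate A of 14 d from its first or second lane alone it was 78.5% or 81.9%.

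A replicate block gave 35 list calls for 21 d against subconfluent cells (37 without it) and 14 for 14 d against confluent cells. The letters did not pair the samples, since the deviations of same-lettered libraries correlated between -0.303 and 0.013. With 2 replicates per stage, the spread of a single gene is poorly known.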
